A study of Mus musculus with 8 samples.

Results

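Ribosome biogenesis in the mouse ileum was followed through 36 genes: the transcription factor Myc and 35 genes whose proteins make or process ribosomal RNA. The 36 were picked by name from the 35715 gene names on the array, with earlier results of these data known, and each was represented by its brightest probe. All 36 were found, were well above background on all 8 arrays and were tested, among 21362 genes tested in all. Of these 36, 24 had a single probe and 12 had several.

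Ribosomes are assembled mostly in the nucleolus, where RNA polymerase I transcribes a long precursor RNA that is chemically modified, cut and folded into the RNAs of the small and the large subunit. Small nucleolar ribonucleoproteins (snoRNPs) guide the modifications: box C/D particles methylate ribose and box H/ACA particles convert uridine to pseudouridine. Myc pairs with Max, binds E-box DNA motifs and is known to raise transcription of many of these genes. In the intestine, Myc is a target of Wnt signalling in the dividing crypt cells.

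RNA came from the ileum, the end section of the small intestine, of female mice of the strain Rosa26rtTA/+, Hprt Myc-Tnk1tg. All animals therefore carry rtTA, an activator that needs doxycycline, at Rosa26, and a Tnk1 transgene at Hprt whose product carries a Myc epitope tag, which is not the Myc gene studied here. One group of 4 arrays received doxycycline (50 µg per g of body weight in 100 µl) and the other group of 4 received 100 µl of 0.9% NaCl, both by intraperitoneal injection 24 hours earlier. The study set out to see how inducing TNK1, a non-receptor tyrosine kinase, alters gene expression in the gut. The strain label and the design give the saline animals the knock-in genotype, whereas their titles and source name call them WT, and no mice lacking the transgene were given doxycycline, so effects of doxycycline itself and of TNK1 cannot be told apart. The labels give no age and do not name the cells in which rtTA is made.

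Levels are log2 signal relative to the 75th percentile of each array, and differences are doxycycline minus saline on this log2 scale, with a standard error (SE) from limma. On the only slide, row 1 holds the doxycycline arrays and row 2 holds the saline arrays, so treatment and position on the slide cannot be told apart. Between 30485 and 31713 probes were well above background on the doxycycline arrays and between 22069 and 23994 on the saline arrays. The 5′-side Tnk1 probe rose by 2.79 (SE 0.225, limma adjusted p = 4.16e-04) and Hprt by 6.01, while the 3′-side Tnk1 probe read -0.45 (adjusted p = 0.143). The tissue label was met by Fabp6, an ileal bile acid carrier, at 9.45 ± 0.21 (SD, n = 4) in the saline group and 9.25 ± 0.26 (SD, n = 4) in the doxycycline group. Saline array 4 stood apart for Alpi, the enterocyte alkaline phosphatase, at 1.87 against 3.86 to 4.71 on the other saline arrays. Saline array 2 stood apart for B cell markers, with a list mean of 2.54 against -1.03 to -0.65 on the other saline arrays.

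Because Myc acts through E-boxes, the promoters of the 36 genes are shown for the letters they hold. RefSeq windows on GRCm38.p6, from 250 bases before to 50 bases after a transcription start, were available for 31 of the 36 genes, and Myc, Npm1, Bop1, Fbl and Rrp12 are named only. The canonical E-box CACGTG, which reads the same on both strands, lay in the windows of 7 of the 31 genes (22.6%) and in those of 8.09% of all 27025 genes with a window. The 8 matches follow, each as 30 bases written 5′ to 3′ on the gene's strand with the E-box in capitals.
Mybbp1a, chr11:72441347-72441376, plus strand: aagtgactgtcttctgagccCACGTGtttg
Wdr43, chr17:71616220-71616249, plus strand: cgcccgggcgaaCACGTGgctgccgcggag
Nop2, chr6:125131811-125131840, plus strand: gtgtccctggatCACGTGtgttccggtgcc
Pes1, chr11:3963965-3963994, plus strand: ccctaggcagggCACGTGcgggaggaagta
Tsr1, chr11:74898092-74898121, plus strand: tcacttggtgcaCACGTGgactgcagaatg
Utp20, chr10:88826765-88826794, minus strand: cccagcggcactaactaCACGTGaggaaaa
Rrn3, far site, chr16:13780472-13780501, plus strand: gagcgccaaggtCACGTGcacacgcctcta
Rrn3, near site, chr16:13780639-13780668, plus strand: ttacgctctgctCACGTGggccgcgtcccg

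Of these 8 E-boxes, 5 began after the start: 3 bases after it in Pes1, 18 in Wdr43, 25 in Tsr1, 38 in Utp20 and 41 in Mybbp1a. The E-box of Nop2 began 60 bases before the start, and those of Rrn3 began 215 and 48 bases before it. Rrn3, the factor that brings RNA polymerase I to the ribosomal RNA promoter, was the only one of the 31 genes with a pair of canonical E-boxes. Its 250 bases upstream of the start (chr16:13780449-13780698, plus strand) are shown whole for the spacing of the pair.
Rrn3 upstream: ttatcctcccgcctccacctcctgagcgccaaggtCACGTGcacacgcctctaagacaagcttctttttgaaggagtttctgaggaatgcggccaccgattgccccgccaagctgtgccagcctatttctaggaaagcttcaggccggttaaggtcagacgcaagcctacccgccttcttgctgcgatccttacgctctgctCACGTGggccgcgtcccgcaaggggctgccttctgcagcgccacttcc
The upstream bases of Ncl, which encodes nucleolin and rose in the fit below, are shown as a window in which neither CACGTG nor the variant CACGCG was found (chr1:86359456-86359705, minus strand).
Ncl upstream: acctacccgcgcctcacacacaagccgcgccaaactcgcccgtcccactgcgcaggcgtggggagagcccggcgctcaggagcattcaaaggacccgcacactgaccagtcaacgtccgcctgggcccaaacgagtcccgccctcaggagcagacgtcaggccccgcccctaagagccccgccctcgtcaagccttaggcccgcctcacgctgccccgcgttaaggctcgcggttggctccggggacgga

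Other letters were searched on both strands of the same windows. The variant E-box CACGCG was held by 35.5% of the 31 genes against 10.5% of all genes. The ETS core CCGGAAG was held by 32.3% against 9.93%. The windows of the 31 genes were also richer in G and C, with a median of 59.7% against 52.7%, and held a median of 21.5 CpG dinucleotides against 7. All 3 motifs hold a CpG, and no comparison matched on base composition was made. Of the 13 genes that rose in the fit below, 2 (15.4%) held the canonical E-box (Mybbp1a and Wdr43), and of the 18 others with a window 5 (27.8%) did. The variant E-box was held by 3 (23.1%) of the genes that rose and by 8 (44.4%) of the others. The ETS core was held by 1 (7.69%) and by 9 (50%). These differences were not tested.

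With doxycycline, 13 of the 36 genes rose and 0 fell in limma's test at an adjusted p of 0.05, whereas 5.94% of all genes tested rose and 7.9% fell. The 13 were Wdr12, Rrp1b, Nop14, Ncl, Ddx21, Nolc1, Nop58, Dkc1, Mybbp1a, Gnl3, Rrp9, Wdr43 and Ftsj3, with log2 differences from 0.78 to 1.18 and adjusted p from 0.00277 to 0.0425. Only Wdr12 and Rrp1b rose by 2-fold or more, as did 3.79% of all genes. The direction was more widely shared than the calls: 32 of the 36 differences were positive (88.9%), against 51.3% of all genes. Their median was 0.64, with quartiles of 0.42 and 0.88, against a median of 0.02 over all genes. At an unadjusted p under 0.05, 26 were higher, as were 14.6% of all genes, and 1, Pes1, was lower. The lowest doxycycline array exceeded the highest saline array for 10 of the 36 (27.8%), against 8.83% of all genes, and the reverse held for 0, against 13%.

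**Figure D1:**
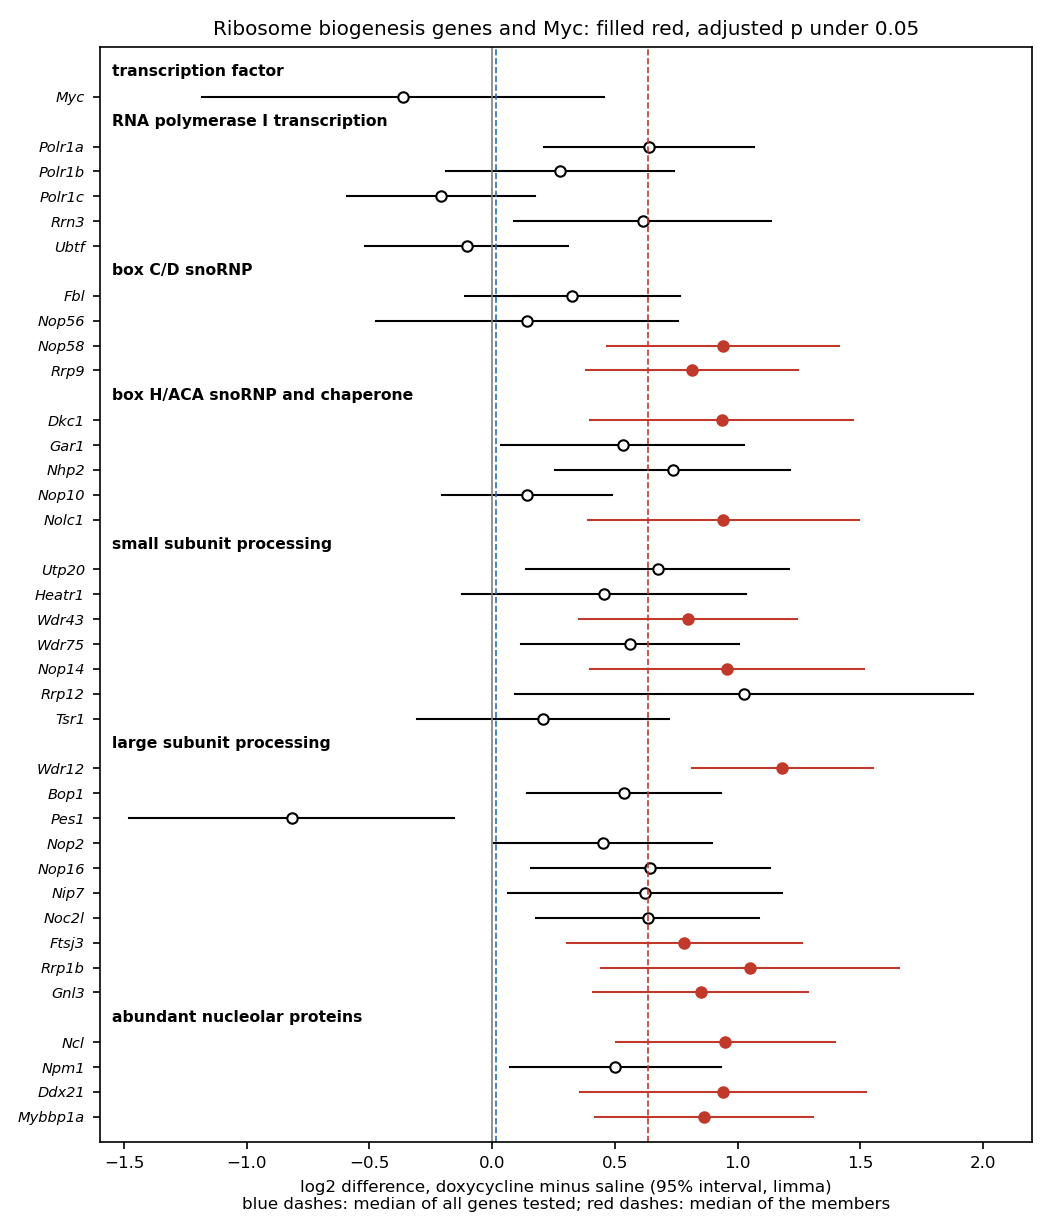
Log2 difference between doxycycline and saline (x axis, log2 units) for each of the 36 genes, grouped by role; bars are 95% intervals from limma, filled red points passed an adjusted p of 0.05, and dashed lines mark the medians of all genes tested (0.02) and of the 36 genes (0.64). The 4 differences below 0 are those of Myc, Polr1c, Ubtf and Pes1.

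The count of 13 rested on few arrays. Leaving out saline array 4 raised it to 23 of 36 (63.9%, against 7.21% of all genes). Leaving out doxycycline array 2 or doxycycline array 4 lowered it to 3 each (8.33%, against 4.56% and 3.4% of all genes), and leaving out saline array 2 lowered it to 6 (16.7%, against 6.73%). Without doxycycline array 3, saline array 1 or saline array 3 it was 1 each (2.78%), which is below the 3.03%, 3.05% and 3.05% of all genes that rose there, so in those fits the count says nothing about the 36 genes. The gene left in all 3 was Wdr12, whose probe is doubtful as described below. Without doxycycline array 1 the count was 12 (33.3%, against 6.07%). The median difference moved less, from 0.56 without saline array 2 to 0.80 without saline array 4, and 31 to 33 of the 36 differences were positive in each fit.

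Saline array 4 was the highest of the 4 saline arrays for 34 of the 36 genes (94.4%), against 42.8% of all genes. Doxycycline array 1 was the lowest doxycycline array for 24 of them (66.7%), against 25.6% of all genes, and doxycycline array 2 the highest for 21 (58.3%), against 23.0%. Averaged over the 36 genes and set against the saline mean of each gene, doxycycline arrays 1 to 4 lay at 0.36, 0.77, 0.53 and 0.59, and saline arrays 1 to 4 at -0.11, -0.20, -0.14 and 0.44. Saline array 4 thus lay above doxycycline array 1, and the groups overlapped through that pair. Before scaling, the pair also had the lowest median intensities. These were 15.0 on saline array 4 and 19.8 on doxycycline array 1, against 21.7 to 28.0 on the other arrays. A link between intensity and the levels of the 36 genes was not tested. The 36 genes are read from the same 8 arrays, so these averages are not independent measurements of the treatment.

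**Figure D2:**
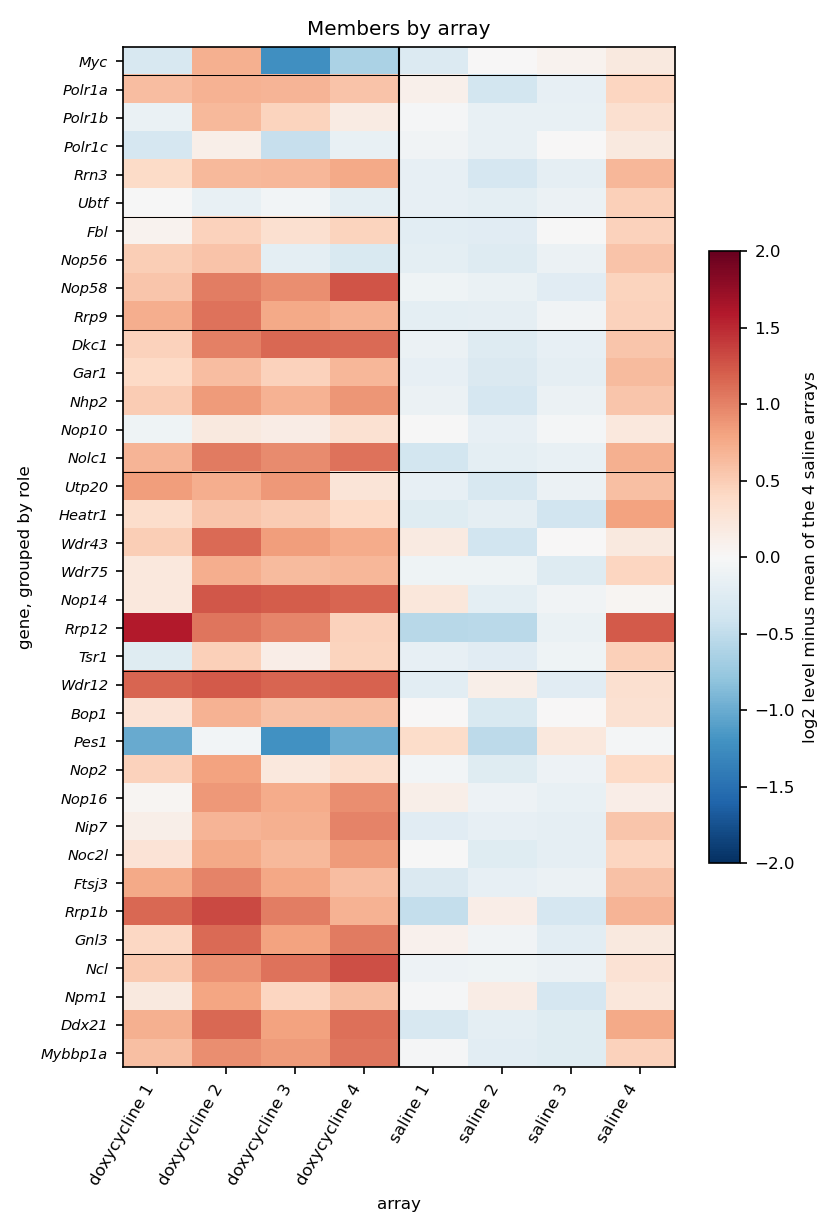
Level of each of the 36 genes on each of the 8 arrays, as log2 level minus the mean of the gene's 4 saline arrays (colour scale from -2 to 2), with genes in rows grouped by role and arrays in columns. Saline array 4 is redder than the other saline arrays in most rows, and the rows of Myc and Pes1 hold blue doxycycline cells.

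Myc itself did not rise. Its probe (mm9 chr15:61821417-61821476) read 0.53, 1.56, -0.37 and 0.22 on doxycycline arrays 1 to 4 and 0.58, 0.85, 0.93 and 1.05 on saline arrays 1 to 4. Doxycycline array 2 was above every saline array and the other 3 doxycycline arrays were below every one. The difference was -0.36 (SE 0.362, 95% interval -1.18 to 0.45) at a limma adjusted p of 0.532 and an exact permutation p of 0.429. The interval holds falls of more than 2-fold as well as small rises, so the test does not show that Myc RNA was equal in the groups. Over the alternatives the difference ran from -0.72 to -0.08.

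RNA polymerase I and its initiation factors gave 0 calls among 5 genes in limma's test (2 at an unadjusted p under 0.05), with a median difference of 0.28. Polr1a, the largest subunit of the polymerase, read 2.61, 2.69, 2.68 and 2.57 with doxycycline and 2.10, 1.63, 1.83 and 2.43 with saline. The groups did not overlap, and the difference of 0.64 (SE 0.188, adjusted p = 0.0541) missed the threshold in this fit. It passed in 10 of the 21 alternatives, among them the fit without saline array 4 (0.78, adjusted p = 0.0168). Rrn3 read 2.57, 2.83, 2.85 and 2.95 with doxycycline against 2.03, 1.86, 2.003 and 2.86, so saline array 4 reached the doxycycline range and the other 3 saline arrays did not. Its difference of 0.61 (adjusted p = 0.109) passed without saline array 4 (0.84, adjusted p = 0.0117).

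The other 3 genes of this group did not pass either, and their intervals hold both rises and falls. Polr1b, the second-largest subunit, differed by 0.28 (95% interval -0.19 to 0.74). Polr1c, a subunit shared with RNA polymerase III, differed by -0.21 (-0.59 to 0.18), with overlapping groups. Ubtf, which binds ribosomal DNA and keeps it open, differed by -0.10 (-0.52 to 0.31), and its sign turned without saline array 4 (0.06). A second, dimmer Ubtf probe gave 0.41 (SE 0.322). The brightest Ubtf probe, which gave the -0.10, begins with a run of alternating T and G over much of its length. It is shown for the repeat by its first 30 bases.
Ubtf probe, start: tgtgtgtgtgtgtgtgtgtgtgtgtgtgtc

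Of the box C/D proteins, 2 of 4 rose, and the median difference of the 4 was 0.57. Nop58, a core protein of the particle, read 3.79, 4.25, 4.16 and 4.49 with doxycycline and 3.15, 3.096, 3.01 and 3.67 with saline, which do not overlap. It rose by 0.94 (SE 0.209, 1.92-fold, adjusted p = 0.0212). Rrp9, a protein specific to the U3 snoRNP, read 1.32, 1.67, 1.35 and 1.29 against 0.39, 0.41, 0.52 and 1.06 and rose by 0.81 (SE 0.191, 1.76-fold, adjusted p = 0.0254). Both calls were lost without doxycycline array 3, doxycycline array 4, saline array 1 or saline array 3, and that of Rrp9 also without doxycycline array 2 or saline array 2.

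The methyltransferase of the box C/D particle, Fbl, differed by 0.33 (SE 0.193, adjusted p = 0.284). Its only probe is placed on chromosome 17 by the array's annotation, while RefSeq has the gene on chromosome 7. Nop56, the partner of Nop58 in the particle, read 4.68, 4.75, 3.98 and 3.88 with doxycycline and 3.98, 3.93, 4.07 and 4.75 with saline, a difference of 0.14 (adjusted p = 0.758). Doxycycline arrays 1 and 2 and saline array 4 were high and the other 5 arrays low, so Nop56 did not divide by treatment. Its 3 probes gave 0.14, 0.22 and 0.42. The first is placed on the gene's chromosome 2, the second on chromosome 17, and the third has no placement.

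Of the box H/ACA proteins and their chaperone, 2 of 5 rose, and all 5 differences were positive with a median of 0.74. Dkc1, the pseudouridine synthase dyskerin, read -0.02, 0.53, 0.68 and 0.65 with doxycycline and -0.60, -0.74, -0.65 and 0.08 with saline. It rose by 0.93 (SE 0.236, 1.91-fold, adjusted p = 0.0326), and the only overlap was saline array 4 above doxycycline array 1. Nolc1, a phosphoprotein that chaperones snoRNPs, rose by 0.94 (SE 0.244, adjusted p = 0.0353) on its brightest probe, with 3.53, 3.89, 3.80 and 3.93 against 2.47, 2.65, 2.70 and 3.56. Both calls were lost without doxycycline array 2, 3 or 4 and without saline array 1, 2 or 3.

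The core proteins Nhp2, Gar1 and Nop10 did not pass. Nhp2 read 5.74, 6.09, 5.92 and 6.12 against 5.12, 4.90, 5.12 and 5.79, a difference of 0.74 (SE 0.212) at an adjusted p of 0.0504. Gar1 differed by 0.53 (adjusted p = 0.134) and Nop10 by 0.14 (adjusted p = 0.57). Without saline array 4 both Nhp2 (0.92, adjusted p = 0.0097) and Gar1 (0.74, adjusted p = 0.0132) passed, and Nop10 did not.

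Of the factors for the small subunit, 2 of 7 rose, with 7 positive differences and a median of 0.67. Wdr43, a subunit of the complex that first assembles on the precursor RNA, read 1.69, 2.33, 2.04 and 1.94 with doxycycline and 1.37, 0.82, 1.20 and 1.40 with saline. It rose by 0.80 (SE 0.196, 1.74-fold, adjusted p = 0.0294) with no overlap. Nop14, a later-acting assembly factor, read -0.97, 0.05, 0.02 and -0.03 against -0.96, -1.38, -1.26 and -1.16, so doxycycline array 1 stayed with the saline arrays and the other 3 lay about 1 log2 unit higher. It rose by 0.96 (SE 0.247, adjusted p = 0.035). The Wdr43 call was lost without doxycycline array 2, 3 or 4 or saline array 1, 2 or 3. The Nop14 call was lost in each of those fits and also without saline array 4 (0.97, adjusted p = 0.0552).

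Rrp12, which serves export of the small subunit precursor, had a wide error: it read -0.24, -0.77, -0.85 and -1.37 with doxycycline and -2.40, -2.37, -1.97 and -0.60 with saline. Saline array 4 was higher than 3 of the 4 doxycycline arrays, and the difference of 1.03 (SE 0.412, adjusted p = 0.127) did not pass. Without that array it was 1.44 (adjusted p = 0.0149). The others were the scaffold proteins Utp20 (0.67, adjusted p = 0.0911), Heatr1 (0.45, adjusted p = 0.259) and Wdr75 (0.56, adjusted p = 0.0899), and Tsr1 (0.21, adjusted p = 0.574), a factor of late cytoplasmic assembly. Without saline array 4 Utp20, Heatr1 and Wdr75 passed as well and Tsr1 did not.

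Of the factors for the large subunit, 4 of 10 rose, Wdr12 with its doubtful probe among them, with 9 positive differences and a median of 0.64. Rrp1b, a nucleolar protein of early large subunit assembly, read -0.47, -0.30, -0.59 and -0.92 with doxycycline and -2.10, -1.49, -1.96 and -0.95 with saline. It rose by 1.05 (SE 0.268, 2.07-fold, adjusted p = 0.0336), with doxycycline array 4 and saline array 4 nearly touching. Its saline levels were low, and the Rrp1b call was lost with normexp background, with a common floor and with replicate number as a block. Over the alternatives its difference ran from 0.53 to 1.46. Gnl3, the GTP-binding protein nucleostemin, read -0.04, 0.68, 0.35 and 0.59 against -0.37, -0.53, -0.67 and -0.26 and rose by 0.85 (SE 0.193, 1.80-fold, adjusted p = 0.0226). Ftsj3, a methyltransferase of the precursor RNA, read 0.86, 1.10, 0.88 and 0.72 against -0.19, -0.06, -0.02 and 0.69 and rose by 0.78 (SE 0.212, adjusted p = 0.041). The groups did not overlap in any of these 3 genes. All 3 calls were lost without doxycycline array 2, doxycycline array 3, saline array 1 or saline array 3. Without doxycycline array 4 Gnl3 and Ftsj3 were lost, without doxycycline array 1 Rrp1b and Ftsj3, and without saline array 2 Ftsj3.

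Wdr12, Bop1 and Pes1 form the PeBoW complex, which is needed to mature the large subunit RNAs, and their probes gave 3 different pictures. The brightest Wdr12 probe read 2.53, 2.59, 2.53 and 2.55 with doxycycline and 1.15, 1.49, 1.15 and 1.68 with saline, a rise of 1.18 (SE 0.163, 2.27-fold, adjusted p = 0.00277). That probe is placed at mm9 chr7:13765490-13765549, although the gene lies on chromosome 1. The second Wdr12 probe, placed on chromosome 1 (chr1:60134539-60134598), differed by 0.17 (SE 0.318, adjusted p = 0.758), so the rise cannot be assigned to the Wdr12 locus from these probes.

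Bop1 differed by 0.54 (SE 0.175, adjusted p = 0.073), with saline array 4 at 3.11 just above doxycycline array 1 at 3.08. Pes1 was the lowest of the 36 differences. Its brightest probe (mm9 chr11:3879948-3880007) read 0.02, 0.98, -0.19 and 0.03 with doxycycline and 1.39, 0.50, 1.24 and 0.98 with saline, a difference of -0.82 (SE 0.293, adjusted p = 0.0953). Doxycycline array 2 lay within the saline range and the other 3 below it, and without that array the difference passed as a fall (-1.10, adjusted p = 0.0212). The second Pes1 probe (chr11:3873303-3873362), well above background on 4 doxycycline arrays and 1 saline array, gave 0.38 (SE 0.236, adjusted p = 0.313).

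The remaining large subunit factors were positive without passing. They were the RNA methyltransferase Nop2 (0.45, adjusted p = 0.153), Nop16 (0.64, adjusted p = 0.0782), Nip7 (0.62, adjusted p = 0.122) and Noc2l (0.63, adjusted p = 0.0669). Nop16 read 0.25 on doxycycline array 1 and 0.95 to 1.13 on the other 3, against 0.05 to 0.34 with saline. Without doxycycline array 1 both Nop16 and Noc2l passed, and without saline array 4 Nip7, Noc2l and Bop1 did.

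Of the abundant nucleolar proteins, 3 of 4 rose, with a median difference of 0.90. Ncl, which encodes nucleolin, read 5.41, 5.81, 5.97 and 6.17 with doxycycline and 4.79, 4.80, 4.78 and 5.18 with saline, with no overlap. It rose by 0.95 (SE 0.197, 1.93-fold, adjusted p = 0.0162), and the call was lost without doxycycline array 3, saline array 1 or saline array 3. Mybbp1a, a Myb-binding nucleolar protein, read 4.90, 5.22, 5.14 and 5.36 against 4.27, 4.09, 4.05 and 4.76 and rose by 0.86 (SE 0.196, 1.82-fold, adjusted p = 0.0225). Its call was lost in the same 3 fits and without doxycycline array 2 or 4.

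Ddx21, an RNA helicase of the nucleolus, read 3.18, 3.62, 3.27 and 3.56 with doxycycline and 2.15, 2.27, 2.22 and 3.23 with saline. Saline array 4 lay among the doxycycline arrays and the other 3 about 1 log2 unit lower. The difference was 0.94 (SE 0.258, adjusted p = 0.0425), was lost on leaving out any array but saline array 4, and was 1.20 (adjusted p = 0.0046) without that array. Npm1, which encodes nucleophosmin, differed by 0.50 (SE 0.189, adjusted p = 0.109).

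By role, leaving out saline array 4 gave 2 of 5 calls for RNA polymerase I, 2 of 4 for box C/D proteins, 4 of 5 for box H/ACA proteins and the chaperone, 5 of 7 for the small subunit, 7 of 10 for the large subunit and 3 of 4 for the abundant nucleolar proteins. Leaving out doxycycline array 1 as well, an alternative chosen after seeing the data, gave 27 of 36 in all (75%, against 8.04% of all genes). Saline array 4 was the highest saline array for 34 of the 36 genes, so leaving it out lowered their saline means. Without doxycycline array 3, saline array 1 or saline array 3 instead, only 1 of the 36 rose, Wdr12 of the large subunit group. Every group of roles other than Myc held calls in the fit without saline array 4, and this spread was not kept in those other fits. No test of a difference between roles was made.

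Several probes of the same gene allowed a check within the arrays, and 12 of the 36 genes had them. Ddx21 gave 0.94 and 0.93, Nip7 0.62 and 0.57, Tsr1 0.21 and 0.27, and Wdr43 0.80 and 0.51, so the first 3 pairs differed by less than the SE of either value. The Tsr1 probes overlap over most of their length (mm9 chr11:74722409-74722468 and chr11:74722413-74722472), so their likeness is no separate check. The 5 Npm1 probes gave 0.50 to 0.88, of which 3 are placed on other chromosomes than the gene. Npm1 has near-identical copies in the genome, so its values are uncertain. Polr1a gave 0.64 and 0.97, and the second value passed in the fit over probes (adjusted p = 0.021), although that probe was above background on only 1 saline array.

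Other pairs disagreed. Nolc1 gave 0.94 (adjusted p = 0.0376 in the fit over probes) and -0.10 (SE 0.225, adjusted p = 0.789) for probes that lie on the same chromosome at chr19:46158875-46158934 and chr19:46159335-46159394, both well above background on all arrays. Ncl gave 0.95 and 0.38 (SE 0.22, adjusted p = 0.277), Ubtf -0.10 and 0.41, and Wdr12 and Pes1 differed as described above. Averaging all kept probes of a gene left 11 of the 36 genes past the threshold (30.6%, against 6.28% of all genes), without Wdr12, Wdr43, Ncl and Nolc1 and with Npm1 and Polr1a. Of the 13 genes that rose, 9 have a chosen probe placed on the gene's own chromosome, 3 (Rrp9, Nop14 and Ftsj3) have one with no placement, and 1 is Wdr12. Leaving out all probes placed off the chromosome of their gene, chosen after seeing the data, gave 12 of 35 (34.3%, against 5.97% of all genes).

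**Figure D3:**
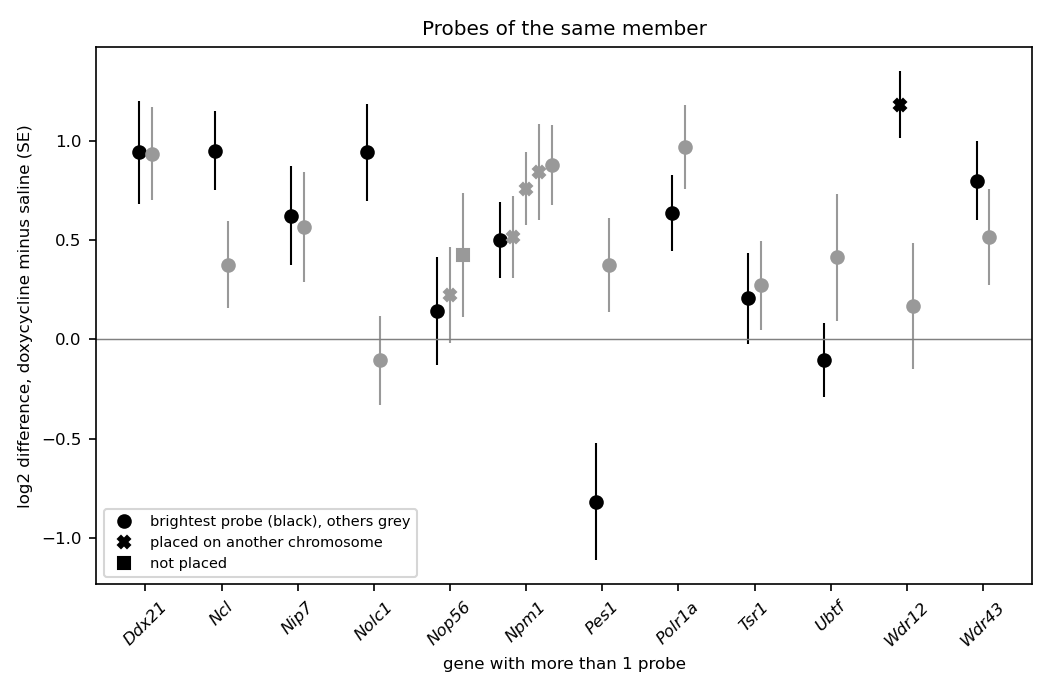
Log2 difference between doxycycline and saline with its SE (y axis, log2 units) for every kept probe of the 12 genes with more than 1 probe; black is the brightest probe, grey the others, crosses are probes placed on another chromosome than the gene and the square is a probe with no placement. The probes of Wdr12, Pes1, Nolc1, Ncl and Ubtf lie farthest apart.

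Other genes of ribosome production leaned the same way with smaller differences. Of 50 other small subunit factors tested, 10 rose (20%, against 5.94% of all genes), 0 fell and 44 were positive, with a median of 0.40. Aatf, a nucleolar cofactor, rose by 0.75 (SE 0.13, adjusted p = 0.00762), and the GTPase Bms1 by 0.65 (SE 0.157, adjusted p = 0.0276). Of 54 other large subunit factors, 8 rose (14.8%, against 5.94% of all genes), 0 fell and 52 were positive, with a median of 0.47. Eif6, which keeps the subunits apart until the large one is mature, rose by 0.69 (SE 0.143, adjusted p = 0.0161) and the GTPase Gnl2 by 0.82 (SE 0.172, adjusted p = 0.0169). These counts moved as those of the 36 genes did: without saline array 4 they were 16 and 20. The count of small subunit factors was 1 without doxycycline array 2, 3 or 4 or saline array 1, 2 or 3. In those fits 3.03% to 6.73% of all genes rose, a larger share than 1 of 50. There the count says nothing about these factors. The count of large subunit factors was 4, 2, 2, 1 and 1 without doxycycline array 2, 3 or 4 or saline array 1 or 3, and 13 without doxycycline array 1. Here too the counts of 1 were a smaller share than that of all genes, and the counts of 2 lay near it. The medians ran from 0.33 to 0.50 and from 0.40 to 0.62.

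The medians of the polymerase genes and of the ribosome's own proteins lay near 0. Of 30 other genes of RNA polymerases I and III, 1 rose (3.33%, below the 5.94% of all genes), 0 fell and 14 were positive, with a median of -0.02. It was Polr1e, a polymerase I subunit, by 0.77 (adjusted p = 0.0242). The count was 0 without doxycycline array 2, 3 or 4 or saline array 1 or 3, and 4 without doxycycline array 1 or saline array 4. Of 79 cytosolic ribosomal proteins, 0 rose and 0 fell in limma's test, also at an unadjusted p under 0.05, 43 were positive and the median was 0.02. Only 42 of them had a kept probe not placed on another chromosome than the gene, so the readings of the others are uncertain. Over those 42, with probes placed elsewhere left out, 0 rose and 1 fell, with a median of 0.003. Without saline array 4, 66 of the 79 were positive, with a median of 0.10 and still 0 calls, and with normexp background 67 were, with a median of 0.12. Of 12 genes of the RNA exosome, which trims the precursors, 1 rose (8.33%, against 5.94% of all genes), with a median of 0.19. It was Dis3, the exosome's exonuclease, by 1.12 (adjusted p = 0.00904). The count was 2 without doxycycline array 1 and 3 without saline array 4. Among 10 host genes of snoRNAs, 2 rose (20%, against 5.94% of all genes) and 10 were positive, with a median of 0.56. They were Snhg3 (1.59, SE 0.356, adjusted p = 0.0216), whose introns hold snoRNAs, and Snhg5 (1.30, SE 0.286, adjusted p = 0.0203). That count was 0 without doxycycline array 3 or saline array 1 or 3 and 1 without doxycycline array 4, while the 10 differences were positive in each fit that left out 1 array. The differences between these lists were not tested.

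Known Myc targets outside the ribosome pathway gave 8 rises among 44 tested (18.2%, against 5.94% of all genes), 0 falls and a median of 0.32. Shmt2, the mitochondrial serine hydroxymethyltransferase, rose by 1.20 (SE 0.206, adjusted p = 0.00729), and read 2.49, 2.84, 2.67 and 2.77 against 1.32, 1.30, 1.28 and 2.06. Ctps1, which makes CTP, rose by 1.23 (SE 0.234, adjusted p = 0.0117), and Srm, the spermidine synthase, by 0.91 (SE 0.203, adjusted p = 0.0212). Tert had 0 saline arrays well above background and was at least 1.77-fold higher with doxycycline by a bound set against the lowest signal well above background on each saline array. It entered the test only through its doxycycline arrays, so its call is no independent support for the count. The count was 12 without saline array 4, 3 without saline array 1, and 4 without doxycycline array 2, 3 or 4 or saline array 2 or 3.

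Genes of the Max network and of Myc turnover, relatives of Myc among them, gave 0 rises and 4 falls among 15 tested. The shares over all genes were 5.94% and 7.9%, and the median of the 15 was -0.16. At an unadjusted p under 0.05, 4 were higher and 6 lower, and 7 of the 15 differences were positive. Mxd4 (-1.14, SE 0.205, adjusted p = 0.00911) and Mxd3 (-0.97, SE 0.239, adjusted p = 0.0293) encode Max partners that oppose Myc. Another such partner, Mxd1, read 0.77 (adjusted p = 0.068), and Max itself 0.53 (adjusted p = 0.101), both with no overlap and both named after their values were seen. Mycn, the N-Myc gene, read -4.08, -3.96, -4.54 and -4.55 with doxycycline and -1.56, -1.94, -2.40 and -3.58 with saline, and fell by 1.91 (SE 0.4, adjusted p = 0.0168). Its doxycycline values are near the floor of detection, and it was above background on 3 of 4 saline arrays. Mlxipl, the glucose-responsive factor of the same network, fell by 0.98 (adjusted p = 0.0315). The 4 falls became 1 without doxycycline array 3 and 2 without doxycycline array 2 or 4 or saline array 1 or 3, and without saline array 2 there were also 2 rises. The median ran from -0.27 to -0.08. Of 12 genes known to be repressed by Myc, 0 rose and 1 fell, a share near the 7.9% of all genes that fell. It was Cdkn2b, a cell cycle inhibitor, by 0.98 (adjusted p = 0.0378). The count was 0 without doxycycline array 2 or saline array 1, 3 or 4.

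Bulk tissue was measured, so a change in the number of cells of a type and a change in RNA per cell cannot be told apart, and markers of cell types are given beside the 36 genes. Proliferation markers moved as the 36 genes did across arrays in part: their mean lay at 0.10, 0.35, 0.22 and 0.33 on doxycycline arrays 1 to 4 and at -0.06, -0.54, 0.01 and 0.60 on saline arrays 1 to 4. Saline array 4 was the highest array for proliferation and the highest saline array for the 36 genes. Of 23 proliferation markers 1 rose (4.35%, below the 5.94% of all genes), and the median was 0.18. It was Rrm2, a ribonucleotide reductase subunit, by 1.17 (adjusted p = 0.0227). That call was lost without doxycycline array 2 or 3 or saline array 1 or 3, and the median ran from -0.006 without saline array 2 to 0.41 without saline array 4. Mki67 read 4.51 ± 0.55 (SD, n = 4) in the saline group, with saline array 4 at 5.24, and 4.51 ± 0.04 (SD, n = 4) in the doxycycline group. The log2 of their summed signal ran from 8.18 to 8.47 with doxycycline and from 7.64 to 8.80 with saline. The part of proliferation in the difference of the 36 genes was not tested.

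Among stem and goblet cell markers the calls were falls, against 7.9% of all genes that fell. Of 17 crypt base stem cell markers, 7 fell, 0 rose and 3 were positive, with a median of -0.52, and Lgr5, the stem cell receptor, fell by 1.50 (SE 0.179, adjusted p = 0.00139). Of 15 goblet cell markers, 13 fell and 0 rose, with a median of -1.37, and Muc2, the main gut mucin, fell by 1.97 (SE 0.186, adjusted p = 5.57e-04). The goblet sum ran from 9.71 to 10.3 with doxycycline and from 11.1 to 11.3 with saline. Absorptive enterocyte markers had a median of 0.18 with 1 rise among 20 (5%, below the 5.94% of all genes), that of Apob by 1.30 (adjusted p = 0.032). The median turned to -0.05 without saline array 4, where 1 fell as well. The count of rises was 0 without doxycycline array 1 or 3 or saline array 1 and 2 without saline array 2, and 2 fell without doxycycline array 1. Paneth cell markers gave 0 calls among 8, also at an unadjusted p under 0.05. Saline array 4, high for the 36 genes, was low for enterocyte markers, with a mean of -0.87 against 0.02 to 0.61 on the other saline arrays.

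B cell and germinal centre markers lay at 1.06, 1.65, 1.27 and 2.30 on the doxycycline arrays and at -0.65, 2.54, -0.85 and -1.03 on the saline arrays. All 14 differences were positive, with a median of 1.46, and 0 passed limma's test (4 at an unadjusted p under 0.05); without saline array 2, 11 of 14 rose. Saline array 2 was the highest of all arrays for these markers and, of the saline arrays, the lowest in the mean of the 36 genes. Leaving out saline arrays 2 and 4 together gave 16 of 36 calls (44.4%, against 5.13% of all genes). The log2 of the summed B cell signal ran from 5.17 to 6.69 with doxycycline and from 3.32 to 6.80 with saline.

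Among 7 neutrophil markers 3 rose, with S100a8 at least 3.58-fold higher by the bound above, and the count was 1 without doxycycline array 3 or 4 or saline array 1, 3 or 4. S100a8 was above background on 0 saline arrays and entered the test only through its doxycycline arrays. Only 3 of the 7 neutrophil markers had a probe above background on all 8 arrays, and 1 of these rose in the fit of such genes. With a common floor 1 of the 7 rose. Of 11 macrophage markers 2 rose and 1 fell; 0 rose without doxycycline array 2, 3 or 4 or saline array 1 or 3, and 0 fell without doxycycline array 3 or 4 or saline array 1 or 3. Of 9 endothelial markers 2 rose, and 1 did without doxycycline array 2, 3 or 4 or saline array 1 or 3. Of 10 smooth muscle markers 1 fell, with 0 without doxycycline array 2 or 3 or saline array 1 or 3 and 3 without saline array 2. Of 12 T cell markers 0 passed in limma's test (1 at an unadjusted p under 0.05), and 1 rose without saline array 2. Over all genes tested 5.94% rose and 7.9% fell. The part of these cell types in the difference of the 36 genes was not tested.

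**Figure D4:**
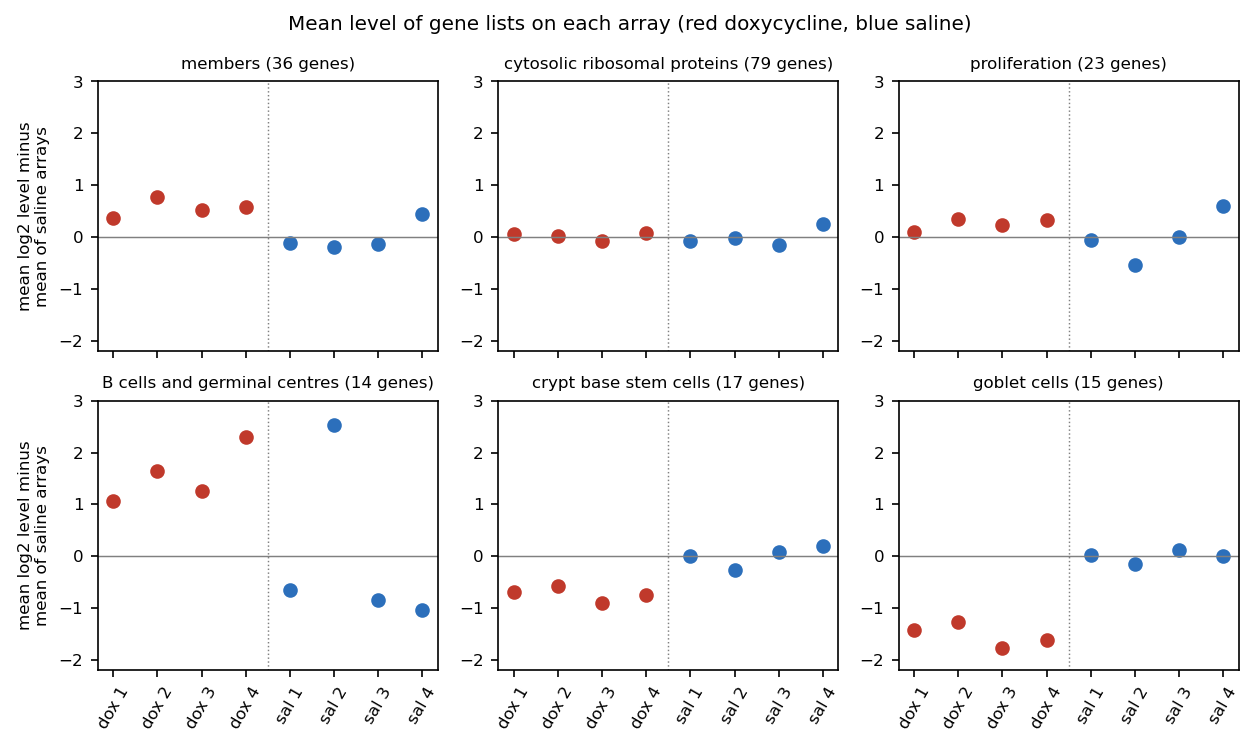
Mean log2 level of 6 gene lists on each array relative to the saline mean of each gene (y axis, log2 units), for doxycycline arrays in red and saline arrays in blue. The 36 genes and proliferation share a high saline array 4, the ribosomal proteins lie between -0.16 and 0.26, B cell markers are highest on saline array 2, and stem and goblet cell markers are lower on all 4 doxycycline arrays.

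Across all 22 fits the share of the 36 genes that rose ran from 2.78% to 77.8%. With weights for each array's quality 28 rose and 1 fell, but 13.7% of all genes rose as well. With normexp background 20 rose (55.6%, against 6.66%) and with signals set to a common floor 8 did (22.2%, against 4.45%). It was 17 with quantile normalization (47.2%, against 6.41%), 18 with the 75th percentile taken over probes above background on all arrays (50%, against 7.28%), and 16 with genes above background on all 8 arrays (44.4%, against 6.36%). Without a filter on dim probes it was 18 (50%, against 5.18%), it stayed at 13 on the deposited log2 values (36.1%, against 5.9%), and with replicate number as a block 5 (13.9%, against 3.68%). The share exceeded that of all genes in every fit but those without doxycycline array 3, saline array 1 or saline array 3.

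**Figure D5:**
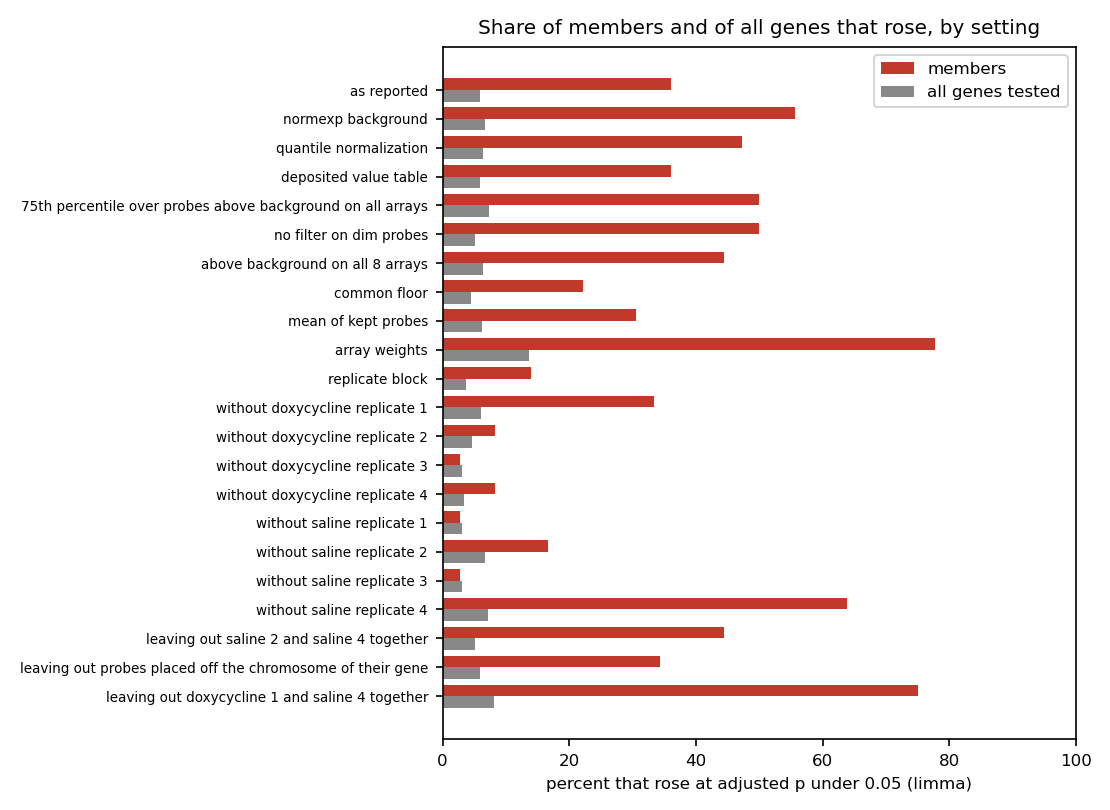
Percent of the 36 genes (red) and of all genes tested (grey) that rose at an adjusted p of 0.05 in limma (x axis, percent) in the reported fit and each alternative. The red bar runs from 2.78% to 77.8% and lies below the grey bar without doxycycline array 3, saline array 1 or saline array 3.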

How the data were processed

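Ileum RNA was hybridised to 8 one-colour Agilent arrays on 1 slide, 4 a group. The deposited scanner files hold spot intensity from Agilent Feature Extraction 10.7.3.1, background-subtracted and detrended per the file headers. A deposited table gives log2 values; compared with the scanner intensities, each column equals the log2 intensity minus a constant (largest departure 5.01e-05), which settles its scale, its direction and that genes were not centred. Its column medians were -3.77, -3.92, -3.83 and -3.81 for doxycycline arrays 1 to 4, and -3.97, -3.70, -3.79 and -3.86 for saline arrays 1 to 4.

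Control and outlier spots were left out and spots of a probe averaged. Each array's log2 intensity was reduced by its 75th percentile. Probes well above background on at least 4 of 8 arrays were kept (28626), and each gene took its brightest kept probe. Groups were compared over 21362 genes by limma 3.58.1 (lmFit, eBayes; R 4.3.3) with two-sided tests, Benjamini-Hochberg adjustment and a threshold of 0.05; the code was tested on simulated data with 200 changed genes. For further probes of a gene the fit was repeated with every kept probe. As no label ties each array to its own animal, the p-values reflect only how these samples vary, and with 4 against 4 an exact permutation p cannot fall below 0.0286. Same-numbered arrays did not deviate together, so numbers were not used as pairs. The number of arrays limits the precision.

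The 36 genes, the companion lists and the alternatives were chosen with earlier results of these data known. Named genes were the 36, Tnk1 and Hprt, 7 tissue markers (1 is not reported here), and up to 4 genes of the smallest p past the threshold from each companion list. Probe positions (mm9) were read from the array files, and promoters are RefSeq's on GRCm38.p6. Transcript annotation of mm9 was not used here.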

Additional observations from a re-analysis of the deposited data

Results flagged for a closer look

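In 9 of the 72 groups of 4 arrays formed by the 36 genes (12.5%), 1 array lay far from the other 3 by Dixon's criterion, against 6.64% of all such groups on the arrays; chance gives about 1 in 20. In 7 of the 9 it was saline array 4, always high: Ubtf at 6.69 against 6.01 to 6.10 on the other saline arrays, Nop56 at 4.75 against 3.93 to 4.07, Dkc1 at 0.0814 against -0.74 to -0.60, Gar1 at 4.93 against 4.01 to 4.14, Nip7 at 3.43 against 2.66 to 2.71, Ncl at 5.18 against 4.78 to 4.80, and Ddx21 at 3.23 against 2.15 to 2.27. The other two were Rrp9 on doxycycline array 2, at 1.67 against 1.29 to 1.35, and Nop14 on doxycycline array 1, at -0.97 against -0.03 to 0.05. The genes share the arrays, so these are not 9 separate events.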

How the results depend on the processing

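Direction kept best: 34 of the 36 genes kept their sign in every alternative, and 0 of the 13 that rose stayed past the threshold in every one. The number that rose was 13, and became 20 with normexp background, 8 with a common floor, 28 with array weights (1 fell) and 27 without doxycycline array 1 and saline array 4, where the median difference was 0.89. With replicate number as a block, which the arrays did not bear out as pairs (correlations of -0.04 to 0.11, own number highest for replicate 3 only), 5 rose. In that fit 787 genes rose and 905 genes fell. Leaving out single arrays gave 1 to 23 of the 36 rising and 0 to 1 falling. Over all genes tested, 648 to 1541 genes rose and 729 to 1870 genes fell in those fits. Array weights gave 2929 that rose and 3400 that fell, leaving out saline arrays 2 and 4 gave 1029 that fell, and no filter on dim probes gave 11809 that fell, with the median of all genes at -0.33. The causes of these shifts were not tested, beyond fewer arrays in some fits.

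The Ubtf log2 difference (-0.10) turned to 0.0896 with normexp, 0.155 with the mean of probes, 0.0127 with array weights, 0.0391 without saline arrays 2 and 4, and 0.0276 without doxycycline array 1 and saline array 4, and ran from -0.169 to 0.0577 when single arrays were left out. The Nop56 log2 difference ran from -0.00102 to 0.331 there. The Tnk1 log2 difference of the brightest, 3′-side probe (-0.45) turned to 1.17 (limma adjusted p = 0.00502) when its probes were averaged. The Mki67 log2 difference (0.01) turned to -0.000788 with the mean of probes and ran from -0.178 to 0.254 when single arrays were left out. The Alpi log2 difference (0.20) turned to -0.327 with array weights, -0.459 without saline arrays 2 and 4, and -0.556 without doxycycline array 1 and saline array 4, and ran from -0.392 to 0.555 when single arrays were left out. Of these reversed values, Tnk1's was the only one past the threshold. Signals near background limit Mycn, Tert and the second Pes1 and Polr1a probes, and the saline levels of Rrp1b were low.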
